A study of Homo sapiens with 21 samples.

Results

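The genes described here are 56 members of the MYC network and of the ribosome biogenesis machinery: MYC, MYCN and 4 of their partners and antagonists, 8 genes of RNA polymerase I, 9 of the small nucleolar ribonucleoproteins (snoRNPs) and nucleolar scaffold, 15 of the small ribosomal subunit pathway, and 18 of the large subunit pathway and other nucleolar functions. They were taken by symbol from a fixed list, after gene identifiers stripped of their version were mapped to symbols, and all 56 were found among the 58174 genes listed for each library. No measured value entered the rule of choice, but the members and lists were set with earlier results of these data known. The study asked how OCI-AML5, a human acute myeloid leukemia cell line, answers UM171, a small molecule agonist of hematopoietic stem cell expansion, and whether EPCR, the protein C receptor encoded by PROCR, shapes that answer. Poly(A) RNA was sequenced from 21 libraries in 7 groups of 3. Control cells received the vehicle DMSO, labelled 72 h, or 500 nM UM171 for 6, 24, 48 or 72 h. The sgEPCR cells, described as clones that carry a guide RNA against EPCR and called both EPCR null and EPCR knockdown, received DMSO or 500 nM UM171, both for 24 h. The guide of the control cells is not given in the labels used here, and neither is which sgEPCR clone gave which library. All groups are the same cell line, and nothing in the labels says that the libraries of a group came from separate cultures, so p-values measure the spread between these libraries, which may be technical.

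MYC is a transcription factor that binds DNA as a dimer with MAX, preferentially at the E-box sequence, and its best known targets in growing blood cells are the genes that make ribosomes. MXD1, MXD4 and MXI1 also pair with MAX but recruit repressors, so that they oppose MYC at the same sites. Ribosome biogenesis starts in the nucleolus, where RNA polymerase I transcribes the ribosomal RNA precursor, snoRNPs modify it, and separate sets of assembly factors fold, cut and export the small and the large subunit.

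Promoter sequence was examined because the E-box links the MYC network to the other members. RefSeq windows (GRCh38.p14) that run from 250 bases before to 50 bases after a gene's start were supplied for 47 of the 56 members. The motif searched was CACGTG, which reads the same on both strands. It was present in at least 1 window of 20 of these 47 members (42.6%), compared with 12.9% of the 9896 genes with a mean of at least 1 transcript per M (TPM) over the libraries and a window, and 8.78% of all 27305 genes with a window. By role, it was found in 8 of 14 large subunit members, 8 of 14 small subunit members, 2 of 7 snoRNP and scaffold members, 1 of 7 RNA polymerase I members and 1 of 5 MYC network members. Among genes outside the members it was found in 15 of 27 MYC targets outside the nucleolus (55.6%), in 22 of 72 other ribosome biogenesis genes (30.6%), in 2 of 15 DNA replication genes and in 4 of 63 cytosolic ribosomal protein genes (6.35%). The following 250 bases before the start are those of the RNA polymerase I subunit POLR1G, the small subunit factor UTP20, the RNA helicase DDX21 and the MYC antagonist MXD4, the members with values in every library below whose motif lies wholly before the start, with CACGTG in capitals.
POLR1G: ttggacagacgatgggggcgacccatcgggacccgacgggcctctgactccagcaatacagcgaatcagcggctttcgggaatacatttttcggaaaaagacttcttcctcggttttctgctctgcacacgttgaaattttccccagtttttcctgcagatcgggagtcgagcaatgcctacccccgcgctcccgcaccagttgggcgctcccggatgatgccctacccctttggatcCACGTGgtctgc
UTP20: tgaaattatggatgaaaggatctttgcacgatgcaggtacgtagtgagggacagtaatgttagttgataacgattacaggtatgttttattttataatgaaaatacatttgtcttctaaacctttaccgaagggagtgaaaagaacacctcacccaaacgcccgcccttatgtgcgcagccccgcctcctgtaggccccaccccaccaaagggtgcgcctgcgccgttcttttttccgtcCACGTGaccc
DDX21: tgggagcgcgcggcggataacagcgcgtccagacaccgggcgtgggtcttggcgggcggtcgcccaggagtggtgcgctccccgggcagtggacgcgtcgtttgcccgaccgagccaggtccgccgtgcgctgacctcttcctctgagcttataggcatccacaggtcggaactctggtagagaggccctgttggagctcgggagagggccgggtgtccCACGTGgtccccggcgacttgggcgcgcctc
MXD4: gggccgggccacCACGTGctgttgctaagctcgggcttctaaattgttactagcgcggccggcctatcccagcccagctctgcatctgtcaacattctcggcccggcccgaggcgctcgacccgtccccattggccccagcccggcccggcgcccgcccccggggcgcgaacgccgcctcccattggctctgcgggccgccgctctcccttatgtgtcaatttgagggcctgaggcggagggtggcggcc
These are chr19:45406394-45406643 and chr12:101279855-101280104 on the plus strand, chr10:68956397-68956646 on the plus strand, which is 1 of 2 DDX21 windows, and chr4:2262110-2262359 on the minus strand. The first base of the motif was 12 bases before the start in POLR1G, 10 in UTP20, 31 in DDX21 and 238 in MXD4. A match only describes these letters, since binding was not measured.

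Library totals lay between 24.3 and 51.5 M expected counts (RSEM's estimate of reads per gene), with a median of 33.9 M. The share of mitochondrial genes was between 7.73% and 13.5% in 19 libraries, but 35.9% in the first library of sgEPCR DMSO and 32.2% in the second of sgEPCR UM171. Cytosolic ribosomal protein genes held 8.56% and 7.96% of the TPM in these 2 libraries and 13.2% to 18.6% in the others, and results of sgEPCR cells are also given without them. PROCR, the targeted gene, was at 3.37 to 4.3 TPM in control DMSO and 48.48 to 48.5 TPM after 24 h of UM171, compared with 4.23 to 8.94 TPM in sgEPCR cells with UM171. The myeloid genes LYZ, SPI1, PTPRC and CD33 were at 34.6 TPM or more in every library, whereas MPO was at 0.48 to 9.08 TPM and ANPEP did not exceed 1.14 TPM. Among markers of other cell types MS4A1 was at 0, CD3E, EPCAM and HBB did not exceed 0.58 TPM and COL1A1 did not exceed 1.31 TPM, while NCAM1 (16.9 to 61.7 TPM), CD79A (5.87 to 40.4 TPM), PECAM1 (5.45 to 46.0 TPM) and CD3D (up to 18.8 TPM) were detected. In bulk RNA, fewer cells of a type and less RNA per cell cannot be told apart.

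A gene was called changed at a Benjamini-Hochberg adjusted p under 0.05 in edgeR's quasi-likelihood test on the rounded expected counts. Fold changes are on the log2 scale with their standard error (SE), after TMM scaling, which sets the bulk of genes at no change. MYCN had 0 counts in all 21 libraries and was not tested, so 55 members were. The lowest expected count of a tested member was 122, for POLR1G. After 6 h of UM171, 52 of the 55 members fell and 0 rose, while 30.3% of the 16575 genes tested fell and 31.8% rose. At 24 h 44 members fell and 6 rose, against 34.8% and 34.9% of genes. At 48 h 48 fell and 2 rose, against 35.0% and 37.1%, and at 72 h 52 fell and 3 rose, against 36.8% and 38.8%. The median log2 fold change of the members over the 4 times was -0.44, -0.38, -0.70 and -1.16, compared with medians of all genes between -0.01 and 0.02. With the stricter limits of a more than 2-fold change and an adjusted p under 0.0001, the members lower numbered 0, 3, 12 and 35 over the 4 times. Of all genes, 0.247%, 4.7%, 4.67% and 5.8% were lower by the same limits. With scaling by total counts in place of TMM, 75.3% of the genes called at 6 h were higher, compared with 51.2% with TMM, and the median of all genes was 0.20, while the member median stayed 0.46 below it and 39 members fell and 0 rose. Markers of other cell types changed over the same comparisons: of 6 tested, 2 rose and 2 fell at 6 h, and 5 rose and 1 fell at 24, 48 and 72 h. The largest of these rises at the 3 later times was that of CD3D (4.05 ± 0.31, 5.37 ± 0.28 and 5.32 ± 0.28), with its T cell partner CD3E at 0.11 TPM or less. The summed TPM of the 10 markers of other cell types was 71.7 to 73.4 in DMSO, 82.4 to 84.7 at 6 h, 78.4 to 87.2 at 24 h, 111.3 to 112.6 at 48 h and 138.2 to 140.1 at 72 h. Of 10 myeloid markers 3 rose and 3 fell at 6 h, and 6 rose and 4 fell at 24 and 48 h. At 72 h 5 rose and 4 fell, and their summed TPM went from 1556 to 1652 in DMSO up to 2323 to 2518. The part of either marker list in the members' changes was not tested. Thus the early decrease of the members was small and spread over nearly every member, and larger decreases were seen at the late times.

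**Figure D1:**
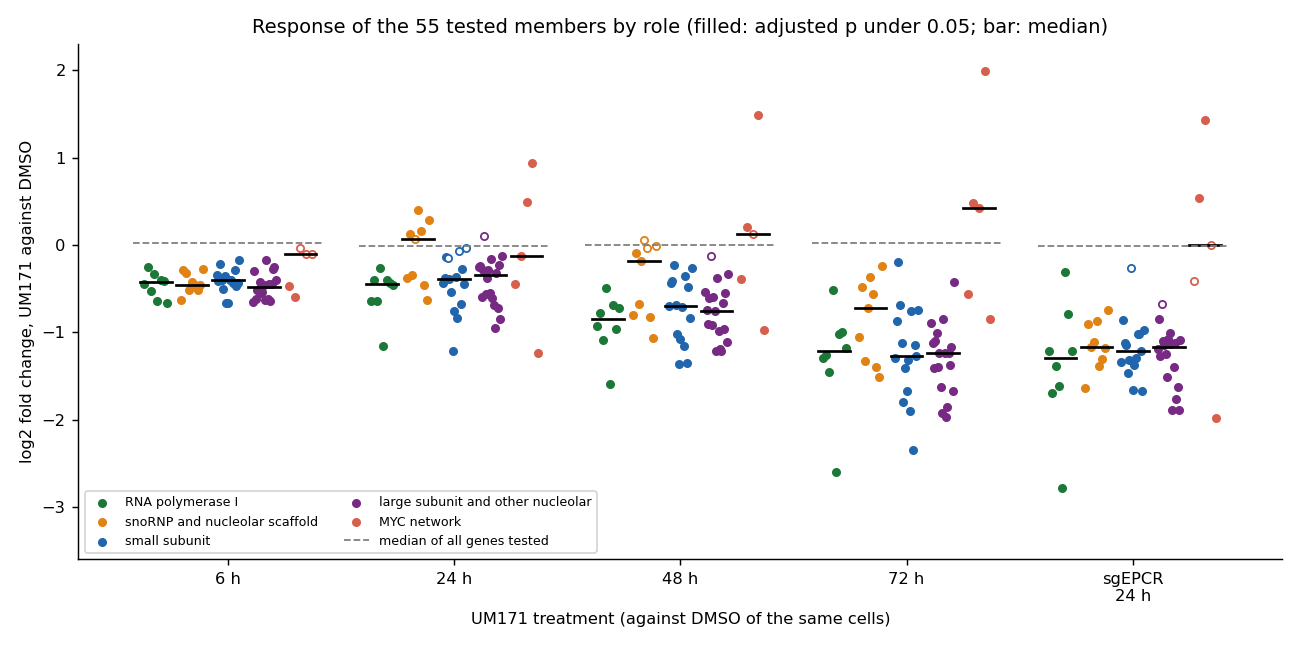
Log2 fold change of each of the 55 tested members (points) by role, for UM171 against DMSO at 6, 24, 48 and 72 h in control cells and at 24 h in sgEPCR cells, where filled points passed an adjusted p of 0.05, black bars are role medians and dashed lines are medians of all genes tested. The 4 nucleolar roles sit below the dashed line at 6, 48 and 72 h, while the snoRNP and scaffold median is 0.07 at 24 h.

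Within the MYC network, MYC itself fell at 24, 48 and 72 h but was not called at 6 h, and its antagonist MXI1 rose at the same 3 times. MYC was at 681, 690 and 692 TPM in DMSO and at 756, 737 and 725 TPM after 6 h of UM171. It was at 303, 301 and 311 TPM after 24 h, at 359, 330 and 372 TPM after 48 h, and at 446, 422 and 389 TPM after 72 h. The libraries of 24, 48 and 72 h were all below those of DMSO, and the lowest values were at 24 h. On the TMM scale, MYC at 6 h had a log2 fold change of -0.11 ± 0.07 (SE), which did not pass the test (adjusted p = 0.195, edgeR), although its TPM were higher than in DMSO, and over the alternatives this value ranged from -0.17 to 0.10. The log2 fold change of MYC was -1.24 ± 0.07 at 24 h, -0.98 ± 0.07 at 48 h and -0.85 ± 0.07 at 72 h, with adjusted p-values of 8.67e-11, 1.3e-09 and 6.37e-09 (edgeR).

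MXI1, on chr10:110207605-110287365 on the plus strand, was at 19.4, 18.4 and 17.6 TPM in DMSO and 20.5, 18.5 and 18.1 TPM at 6 h. Its levels were 31.3, 35.2 and 35.6 TPM at 24 h, 51.1, 52.4 and 60.4 TPM at 48 h, and 91.0, 78.0 and 89.0 TPM at 72 h. The values of 24, 48 and 72 h did not overlap with each other or with DMSO, and the mean at 72 h was 4.66 times that of DMSO. The log2 fold change was 0.94 ± 0.07 at 24 h, 1.49 ± 0.07 at 48 h and 1.99 ± 0.07 at 72 h (adjusted p = 4.99e-14 at 72 h, edgeR).

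The other partners moved less. MAX, the partner of MYC and of its antagonists, was at 100.5, 89.4 and 91.4 TPM in DMSO, and at 81.8, 71.8 and 76.6 TPM at 6 h. Its later values were 68.1, 70.7 and 69.8 TPM at 24 h, 67.8, 65.1 and 91.6 TPM at 48 h, and 74.3, 62.9 and 63.4 TPM at 72 h. MAX fell in all 4 comparisons, with log2 fold changes between -0.56 and -0.39, and of the 12 UM171 libraries only replicate 3 of 48 h overlapped with DMSO. MXD1 was at 15.8, 14.0 and 15.6 TPM in DMSO and at 10.5, 9.85 and 10.8 TPM at 6 h, where it fell (-0.59 ± 0.05). It was at 14.3, 14.1 and 13.2 TPM at 24 h, at 17.4, 20.2 and 14.7 TPM at 48 h, and at 18.4, 20.5 and 20.9 TPM at 72 h. MXD1 was thus below DMSO at 6 h in every library and above it at 72 h in every library (0.48 ± 0.05, adjusted p = 7.26e-08, edgeR), and its changes at 24 h (-0.13 ± 0.05) and 48 h (0.20 ± 0.05) also passed the test, although both groups overlapped with DMSO and the calls were lost in 8 and 2 of 16 alternatives. MXD4 was at 14.97, 15.82 and 16.53 TPM in DMSO and at 20.85, 20.43 and 20.95 TPM at 6 h. Its TPM were thus higher in all 3 libraries at 6 h, yet on the TMM scale the log2 fold change was -0.03 ± 0.06 and did not pass the test, and the direction was the opposite with limma on log2(TPM + 1) (0.38, adjusted p = 0.00127). MXD4 reached 28.77, 28.04 and 25.55 TPM at 24 h, and was at 20.1, 19.6 and 22.1 TPM at 48 h and 24.5, 21.4 and 20.1 TPM at 72 h. It rose at 24 h (0.49 ± 0.06) and at 72 h (0.42 ± 0.06), but did not pass the test at 48 h (0.12 ± 0.06, adjusted p = 0.0913, edgeR).

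**Figure D2:**
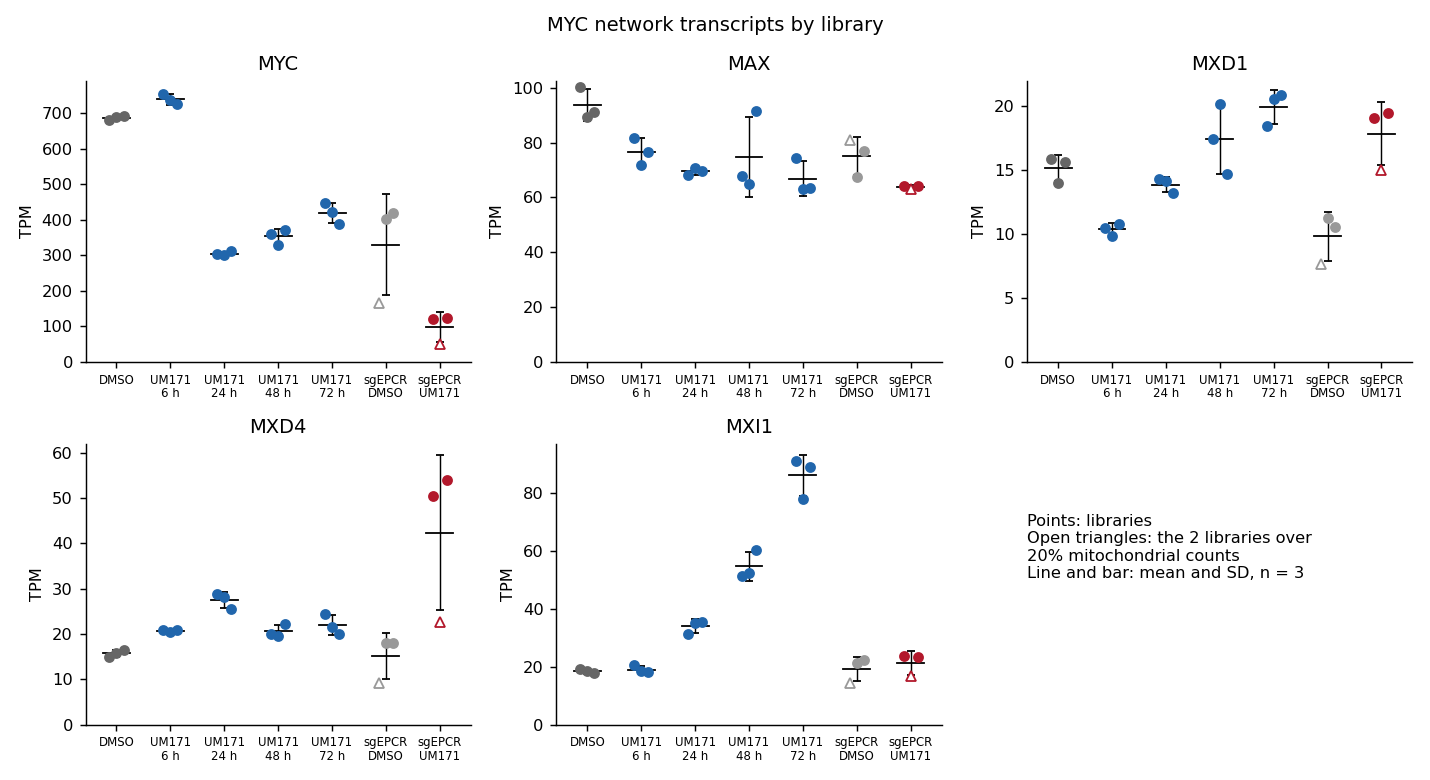
TPM of MYC, MAX, MXD1, MXD4 and MXI1 in each library (points) of the 7 groups, with the mean and SD (n = 3), where open triangles mark the 2 libraries over 20% mitochondrial counts and every y axis starts at 0. MYC drops from 681 to 692 TPM in DMSO to 301 to 311 TPM after 24 h of UM171, and MXI1 climbs to 78.0 to 91.0 TPM at 72 h in control cells but stays at 16.6 to 23.7 TPM in sgEPCR cells with UM171.

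All 8 members of RNA polymerase I, which makes the ribosomal RNA precursor, fell at each of the 4 times, with medians of -0.43, -0.45, -0.85 and -1.22 in the log2 fold change. At 6 h the changes lay between -0.67 for UBTF, which opens ribosomal DNA chromatin, and -0.25 for POLR1B, the second largest subunit. At 72 h they lay between -2.60 for POLR1G and -0.52 for POLR1E, both accessory subunits. POLR1G, on chr19:45406644-45410737 on the plus strand with the promoter printed above, changed most. It was at 40.6, 37.8 and 38.2 TPM in DMSO and at 31.1, 26.6 and 26.5 TPM at 6 h. Its level was 17.5, 18.7 and 16.4 TPM at 24 h, 13.3, 12.5 and 12.1 TPM at 48 h, and 6.55, 6.43 and 6.72 TPM at 72 h. None of these groups overlapped with another, and the mean at 72 h was 0.169 times that of DMSO. The log2 fold changes were -0.64 ± 0.06, -1.16 ± 0.06, -1.60 ± 0.07 and -2.60 ± 0.07, the last with an adjusted p of 3.87e-15 (edgeR). TAF1D, a component of the promoter selectivity factor and the most abundant of these members in DMSO, was at 305, 305 and 299.6 TPM there, and at 257, 260 and 256 TPM at 6 h. It was at 231, 231 and 212 TPM at 24 h, 154, 177 and 140 TPM at 48 h, and 159, 166 and 178 TPM at 72 h. TAF1D at 48 h (-0.96 ± 0.05) overlapped with TAF1D at 72 h (-0.99 ± 0.05), unlike POLR1G. The largest subunit POLR1A (-1.29), POLR1B (-1.26), the shared subunit POLR1C (-1.46), UBTF (-1.18) and the initiation factor RRN3 (-1.02) fell by log2 values between those of POLR1G and POLR1E at 72 h.

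The snoRNP and scaffold members were, of the 4 nucleolar roles, the one with calls in both directions at 24 h. All 9 fell at 6 h, by a median of -0.46, but at 24 h 4 rose and 4 fell, with a median of 0.07. At 48 h 6 fell and 0 rose, with a median of -0.18, and at 72 h all 9 fell again, with a median of -0.72. The 4 that rose at 24 h were NHP2 (0.40 ± 0.04), a protein of the pseudouridylation snoRNPs, NPM1 (0.28 ± 0.04), the nucleolar chaperone nucleophosmin, NOLC1 (0.15 ± 0.05), a chaperone of snoRNPs, and FBL (0.12 ± 0.04), the methyltransferase fibrillarin. The 4 that fell at 24 h were NOP58, NOP56, DKC1 and GAR1, and NCL (0.07 ± 0.07) did not pass the test. The sign of the NOLC1 change at 24 h held in all alternatives, but it missed the threshold in 2 of 16.

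NOLC1, on chr10:102152176-102163871 on the plus strand, was at 135, 139 and 135 TPM in DMSO and at 114, 108 and 110 TPM at 6 h. It was at 159, 158 and 149 TPM at 24 h, 129.6, 134 and 133 TPM at 48 h, and 95.8, 98.0 and 93.6 TPM at 72 h. The libraries of 24 h were all above the DMSO libraries, and those of 6, 48 and 72 h all below them, with 48 h not passing the test (-0.03 ± 0.05). NPM1 was the most abundant of the role, with 2706, 2772 and 2803 TPM in DMSO and 2414, 2612 and 2487 TPM at 6 h. Its level was 3555, 3488 and 3154 TPM at 24 h, 2725, 2903 and 2254 TPM at 48 h, and 2346, 2385 and 2434 TPM at 72 h. NPM1 has many near-identical pseudogene copies between which reads can be split, which makes its level less certain. How far reads of NPM1 or of other members were split was not measured. NOP58, a core protein of the methylation snoRNPs, did not show the increase at 24 h. It was at 238, 246 and 237 TPM in DMSO, 197, 203 and 207 TPM at 6 h, 164, 164 and 148 TPM at 24 h, 115, 119 and 120.5 TPM at 48 h, and 93.6, 99.2 and 93.0 TPM at 72 h. These groups did not overlap, and the log2 fold change at 72 h (-1.51 ± 0.05) was the largest of the role. At 72 h its snoRNP partner NOP56 was at a log2 fold change of -1.40, the pseudouridine synthase DKC1 at -1.06, its partner GAR1 at -1.33, the scaffold protein NCL, nucleolin, at -0.72, FBL at -0.48 and NHP2 at -0.37.

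Genes of DNA replication, a list of 17, also had a higher median at 24 h than at 6 or 72 h: 14 fell at 6 h, 15 rose and 1 fell at 24 h, 11 rose and 3 fell at 48 h, and 3 rose and 12 fell at 72 h. Their medians were -0.28, 0.54, 0.18 and -0.54, so that at 48 h they lay above 0 and the snoRNP and scaffold median below it. The largest rise was that of POLA1, a subunit of DNA polymerase alpha, at 24 h (1.30 ± 0.05). The part of these genes in the result was not tested. Because the DMSO libraries are labelled 72 h, time in culture and UM171 cannot be told apart in the comparisons at 6, 24 and 48 h.

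**Figure D3:**
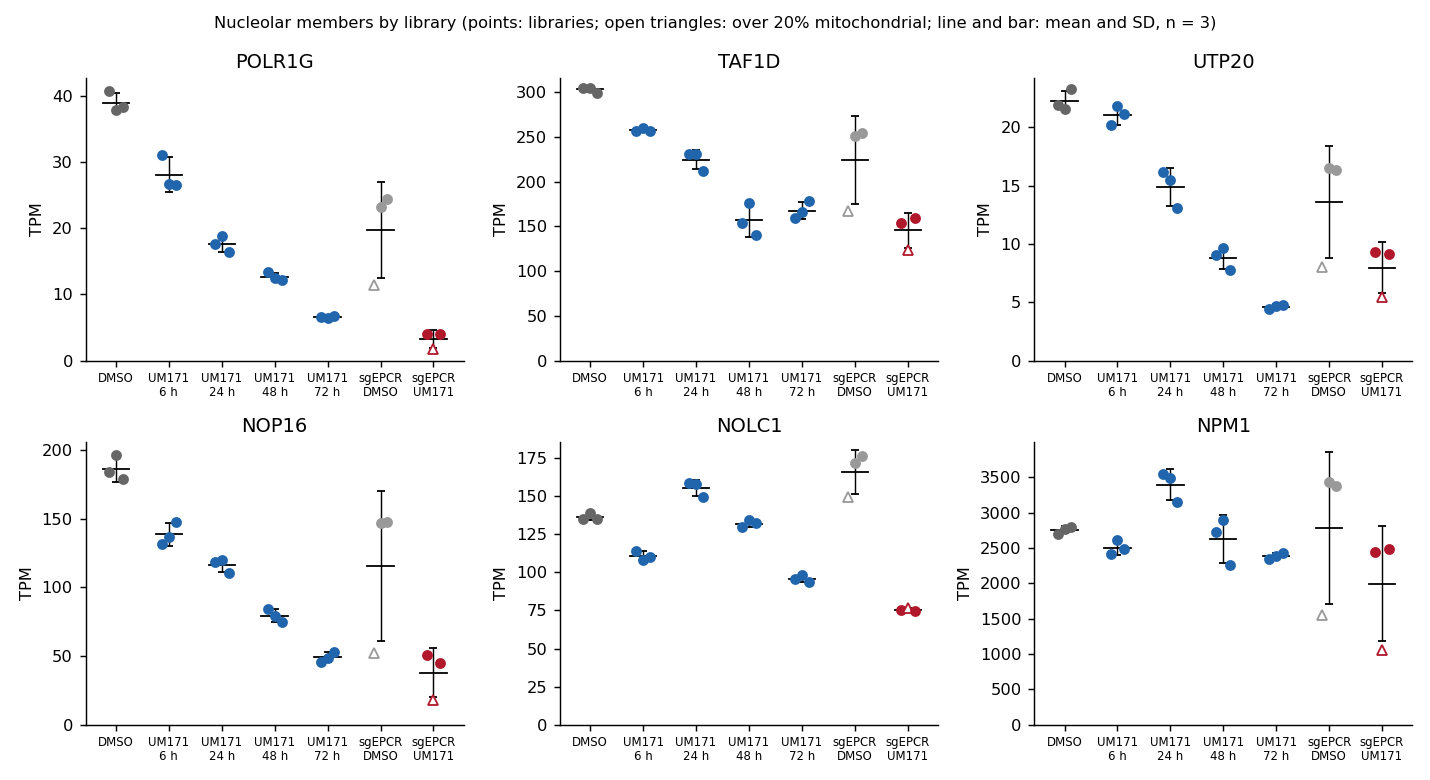
TPM of POLR1G, TAF1D, UTP20, NOP16, NOLC1 and NPM1 in each library (points) of the 7 groups, with the mean and SD (n = 3), where open triangles mark the 2 libraries over 20% mitochondrial counts and every y axis starts at 0. POLR1G, UTP20 and NOP16 are lower at each later time from 24 h on, down to 6.43 to 6.72, 4.44 to 4.8 and 45.4 to 52.8 TPM at 72 h, whereas NOLC1 and NPM1 are highest at 24 h in control cells.

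All 15 small subunit members fell at 6 h, 12 at 24 h, and all 15 at 48 and 72 h, with medians of -0.41, -0.39, -0.70 and -1.27. The 3 not called at 24 h were the processome proteins WDR75 (-0.04 ± 0.06) and UTP18 (-0.07 ± 0.06) and the nucleolar protein NOC4L (-0.15 ± 0.10). The changes at 72 h lay between -2.35 for UTP20 and -0.20 for NOB1, the nuclease that makes the last cut of the small subunit RNA. UTP20, a large scaffold protein of the small subunit processome, lies on chr12:101280105-101386618 on the plus strand. It was at 22.0, 21.6 and 23.3 TPM in DMSO and 20.2, 21.8 and 21.1 TPM at 6 h. Its values were 16.2, 15.4 and 13.1 TPM at 24 h, 9.02, 9.66 and 7.74 TPM at 48 h, and 4.44, 4.65 and 4.8 TPM at 72 h. UTP20 overlapped with DMSO at 6 h, where its change was small (-0.28 ± 0.06) and missed the threshold in 2 of 16 alternatives, and was below it in every library from 24 h. WDR43, another processome protein and the most abundant of the role, was at 161, 174 and 162 TPM in DMSO and at 155, 151 and 147 TPM at 6 h. It was at 127, 128 and 111 TPM at 24 h, 91.8, 102.5 and 132 TPM at 48 h, and 86.6, 83.4 and 82.4 TPM at 72 h. Each of the 12 UM171 libraries was below the DMSO libraries for WDR43 (-1.27 ± 0.04 at 72 h). RRP12, which takes part in the export of both subunits, was at 75.3, 79.5 and 76.4 TPM in DMSO, 32.4, 34.5 and 34.6 TPM at 24 h and 32.4, 33.4 and 32.3 TPM at 72 h. It was thus as low at 24 h as at 72 h in overlapping libraries (-1.21 ± 0.05 and -1.41 ± 0.05). Among the other small subunit members the 72 h changes were -1.15 for UTP4, -1.90 for UTP15, -0.76 for UTP18 and -0.74 for WDR75, which belong to the processome, and -1.68 for RRP9, which binds the U3 snoRNA. They were -1.12 for NOP14, -0.69 for its partner NOC4L, -0.88 for the helicase DDX10, and -1.30, -1.80 and -1.32 for BYSL, PNO1 and TSR1, which act in later maturation.

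The 18 large subunit and other nucleolar members all fell at 6 and 72 h and 17 of them fell at 24 and 48 h, with medians of -0.49, -0.35, -0.75 and -1.24. EBNA1BP2 was the exception at 24 and 48 h (0.10 ± 0.07 and -0.13 ± 0.07). At 72 h the changes lay between -1.97 for NOP16, a nucleolar protein of pre-60S particles, and -0.43 for WDR12, a member of the PeBoW complex. NOP16, on chr5:176383946-176388927 on the minus strand, was at 184, 196 and 178 TPM in DMSO and at 131, 136 and 148 TPM at 6 h. It was at 118, 119.6 and 110.4 TPM at 24 h, 84.2, 78.9 and 74.8 TPM at 48 h, and 45.4, 48.7 and 52.8 TPM at 72 h. All of these groups were separate from each other. DDX21, an RNA helicase that also binds RNA polymerase I transcripts, was at 322, 338 and 341 TPM in DMSO, 243, 245 and 244 TPM at 6 h and 235, 229 and 216 TPM at 24 h. It was at 175, 189 and 158 TPM at 48 h and at 130.1, 132 and 135 TPM at 72 h, so that the decrease of 6 h was followed by little further change at 24 h (-0.62 ± 0.04 and -0.60 ± 0.04) and a larger one at 72 h (-1.41 ± 0.04). RRP1B, a nucleolar protein of the large subunit pathway, was at 52.5, 54.4 and 54.1 TPM in DMSO, 49.2, 49.4 and 51.1 TPM at 6 h and 47.5, 48.2 and 44.5 TPM at 24 h. It was at 37.0, 38.3 and 32.4 TPM at 48 h and 24.3, 26.1 and 25.1 TPM at 72 h (-1.16 ± 0.04), with no overlap between DMSO and any UM171 group. At 72 h the partners of WDR12, PES1 and BOP1, were at log2 fold changes of -1.24 and -0.89, and the methyltransferase NOP2 at -1.86. The helicases DDX18 and DDX56 were at -1.13 and -1.11, and the assembly factors MRTO4, NIP7, RRS1, PPAN and EBNA1BP2 at -1.62, -1.93, -1.67, -1.38 and -1.01. The GTPase GNL3, also called nucleostemin, was at -1.40, NOC2L and NOC3L at -0.85 and -1.24, and LYAR, a nucleolar protein of proliferating cells, at -1.24.

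**Figure D4:**
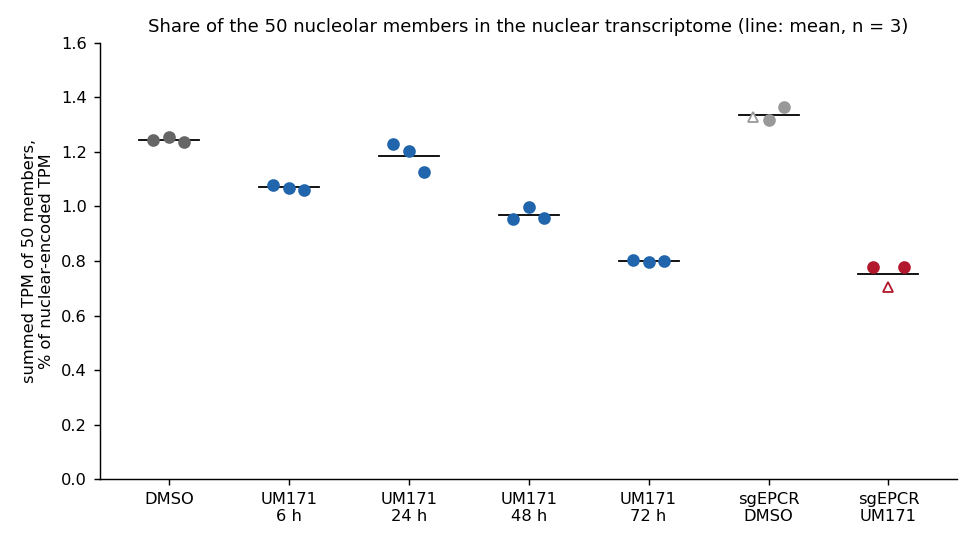
Summed TPM of the 50 members outside the MYC network as a percent of the TPM of all nuclear-encoded genes, for each library (points) of the 7 groups with the mean (line), where open triangles mark the 2 libraries over 20% mitochondrial counts. The share is 1.24% to 1.25% in DMSO, 1.06% to 1.08% at 6 h, 1.13% to 1.23% at 24 h, 0.955% to 0.997% at 48 h and 0.798% to 0.805% at 72 h, and 1.32% to 1.36% against 0.706% to 0.780% in sgEPCR cells with DMSO and UM171.

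Other genes of the same processes were examined as lists. Of 83 other ribosome biogenesis genes, 66 fell at 6 h and 74 at 72 h, while 0 and 4 rose, with medians of -0.29 and -1.01. The largest fall at 72 h was that of URB2 (-2.02 ± 0.06), a nucleolar protein of ribosome assembly, and the largest rise at 48 h that of TCOF1 (0.68 ± 0.04), the treacle protein that binds RNA polymerase I. Of 79 cytosolic ribosomal protein genes 60 fell at 6 h and 72 at 72 h, but by less, with medians of -0.16 and -0.32 and 0 past the 2-fold limit. Of 30 MYC targets outside the nucleolus, 28 fell at 6 h, whereas 20 rose and 4 fell at 24 h, and 6 rose and 21 fell at 72 h. Among these, SHMT2, a mitochondrial enzyme of serine metabolism, rose most at 72 h (1.24 ± 0.04) and TERT, the catalytic subunit of telomerase, fell most (-2.36 ± 0.23). In the list of other MYC network genes MYCL, a paralog of MYC, rose at each time (2.59 ± 0.18 at 6 h and 2.93 ± 0.17 at 72 h), from 0.2 to 0.3 TPM in DMSO to at most 2.24 TPM, a level far below that of MYC in TPM, which are per length. MGA, a repressor that pairs with MAX, had the largest fall of that list at 24, 48 and 72 h (-1.25 ± 0.04 at 72 h).

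In sgEPCR cells, 24 h of UM171 against DMSO lowered 49 of the 55 members and raised 2, against 25.1% of 15901 genes tested that fell and 27.0% that rose. The median of the members was -1.18, compared with -0.01 for all genes. By the stricter limits 29 were lower, against 3.33% of genes. Without the 2 libraries over 20% mitochondrial, 52 members fell and 2 rose, against 5959 and 5652 of 16360 genes. MYC was at 166, 404 and 419 TPM in sgEPCR DMSO and at 121, 50.7 and 124 TPM in sgEPCR UM171, where the lowest value of each group came from the library rich in mitochondrial counts. The UM171 libraries were nevertheless all below the DMSO libraries, and MYC fell, with a log2 fold change of -1.98 ± 0.10 (adjusted p = 7.05e-08, edgeR) and of -1.93 without those 2 libraries. MXI1, which rose in control cells, was at 14.3, 21.1 and 22.2 TPM in sgEPCR DMSO and 23.7, 16.6 and 23.5 TPM in sgEPCR UM171, overlapping groups with a log2 fold change of 0.00 ± 0.11. MXD4 was at 9.28, 18.0 and 18.0 TPM in DMSO and 50.4, 22.7 and 53.9 TPM in UM171, and rose (1.43 ± 0.25, adjusted p = 0.000685, edgeR). MXD1 was at 7.65, 11.3 and 10.6 TPM and at 19.06, 15.01 and 19.41 TPM, and rose (0.53 ± 0.17), a call lost in 5 of 18 alternatives. MAX was at 81.0, 67.4 and 76.8 TPM and at 64.2, 62.9 and 64.0 TPM, and did not pass the test (-0.41 ± 0.25, adjusted p = 0.193, edgeR), though it fell without the 2 libraries (-0.34). Compared with control cells after the same 24 h, MYC and MXD4 were called in the same direction, MXD1 was called in the opposite direction, and MXI1, higher in control cells, was not called.

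Every role outside the MYC network was lower in sgEPCR cells after UM171. All 8 RNA polymerase I members, all 9 snoRNP and scaffold members, 14 of 15 small subunit members and 17 of 18 large subunit members fell, the exceptions being RRP12 and DDX56 (-0.68 ± 0.29, adjusted p = 0.0705, edgeR), with medians of -1.30, -1.16, -1.22 and -1.17. POLR1G again changed most. It was at 11.4, 23.2 and 24.4 TPM in sgEPCR DMSO and at 3.99, 1.72 and 4.07 TPM in sgEPCR UM171, and its log2 fold change was -2.78 ± 0.09 (adjusted p = 7.54e-09, edgeR). The second sgEPCR UM171 library and the first sgEPCR DMSO library were the lowest of their groups here as well. NOLC1 was at 150, 172 and 176 TPM in DMSO and at 75.5, 76.4 and 74.5 TPM in UM171, and NPM1 at 1545, 3429 and 3376 TPM and at 2450, 1055 and 2482 TPM. NOLC1 thus separated the groups, whereas NPM1 overlapped through the first DMSO library (-1.38 ± 0.12 and -0.75 ± 0.11). RRP12 was not called in sgEPCR cells (-0.26 ± 0.25, adjusted p = 0.401, edgeR), from 27.2, 53.5 and 58.2 TPM to 48.8, 16.6 and 49.1 TPM. Without the 2 mitochondria-rich libraries RRP12 was called lower (-0.19, adjusted p = 0.00171, edgeR), and all 15 small subunit and all 18 large subunit members fell.

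The remaining members named above were compared in sgEPCR cells in the same way. WDR43 went from 163, 128 and 144 TPM to 44.3, 47.1 and 46.2 TPM, and RRP1B from 21.9, 52.8 and 52.3 TPM to 20.4, 8.92 and 19.6 TPM. NOP16 went from 52.4, 147 and 148 TPM to 50.6, 17.7 and 45.2 TPM, and DDX21 from 154, 264 and 269 TPM to 127, 85.6 and 127 TPM. UTP20 was at 8.05, 16.5 and 16.3 TPM and at 9.3, 5.47 and 9.12 TPM, and TAF1D at 167, 251 and 255 TPM and at 153.8, 123.5 and 159.3 TPM. WDR43 and NOP58, unlike the others, were highest in the first DMSO library and in the second UM171 library, with 300.0, 188 and 192 TPM against 89.0, 137 and 92.5 TPM for NOP58. UTP20 was the only one of these 7 whose groups overlapped. All 7 fell by the test, with log2 fold changes from -1.89 for NOP16 to -0.79 for TAF1D, but the call was lost in 5 of 18 alternatives for NOP58 and in 1 for UTP20.

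The difference between the UM171 responses of sgEPCR and control cells was tested as an interaction over 12 libraries. It was negative in 41 members and positive in 2, while 23.1% of genes were called negative and 21.9% positive. A negative value is a larger decrease or smaller increase in sgEPCR cells, or a decrease where control cells rose, as for NOLC1 and NPM1. The median of the members was -0.91, compared with -0.02 for all genes, and 8 members were lower by the stricter limits, against 4.17% of genes. Without the 2 mitochondria-rich libraries 50 were negative and 3 positive, against 5824 and 5504 of 16360 genes. Scaling by total counts left 20 members called, 19 negative and 1 positive, against 2123 and 3146 of 15901 genes. With limma on log2(TPM + 1) 3 were negative and 0 positive, against 600 and 1411 of 15901 genes. MYC differed by -0.75 ± 0.13 (adjusted p = 0.000882, edgeR), a call that held in 21 of 23 alternatives, MXI1 by -0.95 ± 0.15 and MXD1 by 0.66 ± 0.23. The largest difference was that of POLR1G (-1.62 ± 0.12, adjusted p = 3.17e-06, edgeR), followed by NOLC1 (-1.54 ± 0.16) and RRP1B (-1.40 ± 0.11). WDR43 (-1.23 ± 0.25), NOP16 (-1.20 ± 0.13), NPM1 (-1.03 ± 0.16), DDX21 (-0.68 ± 0.18) and UTP20 (-0.34 ± 0.12) were also called, and NOP58, TAF1D and MXD4 were not. Without the 2 mitochondria-rich libraries these 3 were called as well, with differences of -0.59, -0.46 and 1.01 (adjusted p = 7.93e-06, 1.61e-05 and 2.72e-08, edgeR). RRP12 was the only nucleolar member with a called positive difference (0.94 ± 0.35, adjusted p = 0.0484, edgeR), and this call was lost in 15 of 23 alternatives. These differences set a DMSO group labelled 24 h against one labelled 72 h, so the genotype and the time of the DMSO libraries cannot be told apart.

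**Figure D5:**
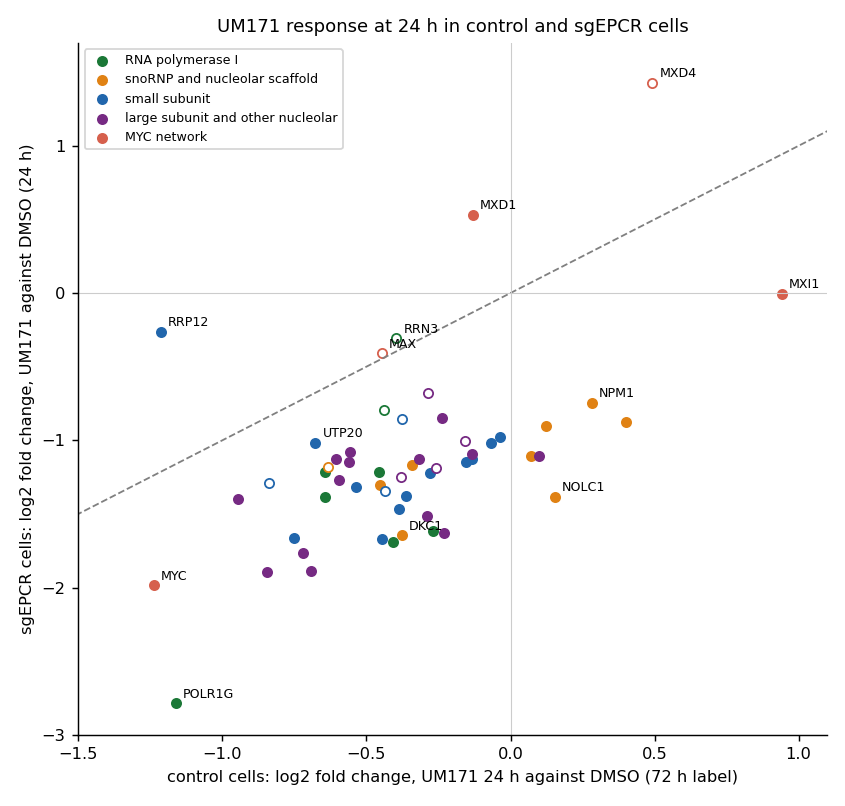
Log2 fold change of each of the 55 tested members after 24 h of UM171 in control cells (x axis, 15-library fit) and in sgEPCR cells (y axis, 12-library fit), colored by role, with the dashed line of equal change and filled points where the difference between responses passed an adjusted p of 0.05. Most members lie below the dashed line, POLR1G is lowest (-1.16 and -2.78), and RRP12 lies above it (-1.21 and -0.26).

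The 2 arms of that difference were also compared. In DMSO, sgEPCR cells had 11 members lower and 5 higher than control cells, against 16.3% and 17.4% of genes, with a member median of -0.04, and 0 members passed the stricter limits while 1.41% of genes were lower by them. MYC was lower there (-0.71 ± 0.09, adjusted p = 0.000207, edgeR) and so was POLR1G (-0.60 ± 0.08), whereas NCL was the highest (0.82 ± 0.29) and NOLC1 (0.56 ± 0.11) and NPM1 (0.54 ± 0.11) were also higher. Without the 2 mitochondria-rich libraries 28 members were lower and 13 higher, against 4910 and 4958 of 16360 genes. Without replicate 3 of control DMSO 9 members were called in all, while 2007 of 16282 genes were lower and 2073 higher. In this comparison 14 of 17 DNA replication genes and 20 of 30 MYC targets outside the nucleolus were higher and 0 were lower. With UM171, where both groups are labelled 24 h, 43 members were lower in sgEPCR cells and 2 higher, against 22.2% and 20.8% of genes. The member median was -0.85, compared with -0.02 for all genes, and 11 members passed the stricter limits, against 1.79% of genes. The log2 difference was -1.46 ± 0.09 for MYC and -2.22 ± 0.09 for POLR1G (adjusted p = 1.5e-06 and 1.08e-07, edgeR), while MXD4 (1.01 ± 0.25) and MXD1 (0.61 ± 0.17) were higher. In the libraries without excess mitochondrial counts, 52 members were lower and 3 higher, against 5868 and 5301 of 16360 genes. MYC per M of nuclear-encoded TPM was 352 to 364 in control UM171 24 h, 105 to 149 in sgEPCR UM171 and 360 to 502 in sgEPCR DMSO.

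Apart from the cell type markers, the other lists were also lower in sgEPCR cells after UM171. Of 10 myeloid markers 5 rose and 3 fell. Of 6 tested markers of other cell types 4 rose and 1 fell, while 27.0% of genes rose and 25.1% fell. Of the 83 other ribosome biogenesis genes 71 fell, of the 30 MYC targets outside the nucleolus 27, and of the 79 ribosomal protein genes 41, while 0 of each rose, with medians of -0.99, -0.93 and -0.37. PWP2, a small subunit processome protein, fell most among the other ribosome biogenesis genes (-2.52 ± 0.14). All 17 DNA replication genes fell (median -0.87), where 15 had risen at 24 h in control cells. MYCL differed most between the responses in the list of other MYC network genes (-3.84 ± 0.21). It was at 0.71, 1.89 and 1.53 TPM in sgEPCR DMSO and 0.77, 0.38 and 0.8 TPM in sgEPCR UM171, and against control cells its log2 difference was 2.83 ± 0.16 in DMSO and -1.01 ± 0.14 in UM171.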

How the data were processed

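Poly(A) RNA of 21 libraries was sequenced from a stranded kit. The authors deposited expected counts and TPM per gene for each library. The submitters' processing notes name CASAVA 1.8.2, Trimmomatic 0.35, STAR 2.5.1b and RSEM 1.2.28 with GRCh38, whereas the study's methods describe another quantification. TPM depend on the whole library, so a high mitochondrial share lowers the TPM of other genes. Of the 58219 entries in each file, 45 second copies of pseudoautosomal genes were added to the first, which left 58174 genes, 57392 with a symbol.

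Groups were taken from the labels. Expected counts were rounded and tested with edgeR 4.0.16 in R 4.3.3 (TMM scaling, filterByExpr, quasi-likelihood test, Benjamini-Hochberg adjustment over all genes tested). The 15 libraries of control cells formed 1 fit, and the 24 h UM171, DMSO and sgEPCR groups, 12 libraries, another. Alternatives used DESeq2 1.42.0, limma 3.58.1 on log2(TPM + 1), other scalings, filters and libraries, the replicate number as a block, and leaving out each library. The tests were also run on simulated counts with known changes. Apart from these changes the simulated libraries shared 1 mean profile, unlike the sgEPCR groups with their libraries rich in mitochondrial counts. Members named with values in every library were those of the MYC network and, for each other role, the most abundant in DMSO, the one with the largest change over the 4 times and the one with the largest difference between responses. RRP12 and members named as exceptions in a count were added after their values were seen. Of each other list only the largest rise or fall in a comparison was named. The members and lists were chosen with earlier results of these data known. Promoter windows came from RefSeq and gene coordinates from GENCODE on GRCh38. The dose is that of the labels, from which the study's text differs.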

Additional observations from a re-analysis of the deposited data

Results flagged for a closer look

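For 12 of the named members the response to 24 h of UM171 differed between sgEPCR and control cells by the interaction term in edgeR (adjusted p under 0.05). Of all genes tested, 23.1% were called negative and 21.9% positive. POLR1G, NOLC1, RRP1B and WDR43 were named at least in part for the size of this difference, and RRP12 for its sign. The number 12 is therefore not a result about the members. The log2 difference, sgEPCR minus control, was -0.75 for MYC, -0.95 for its antagonist MXI1 and 0.66 for its antagonist MXD1. Among nucleolar members it was -1.62 for POLR1G, -1.54 for NOLC1, -1.40 for RRP1B, -1.23 for WDR43, -1.20 for NOP16, -1.03 for NPM1, -0.68 for DDX21 and -0.34 for UTP20, and RRP12 had the opposite sign (0.94). The calls of UTP20 and RRP12 were lost in 15 of 23 alternatives each and that of MXD1 in 12. Without the 2 libraries over 20% mitochondrial the differences were -0.69 for MYC, -0.94 for MXI1 and -1.54 for POLR1G. The DMSO libraries are labelled 72 h for control and 24 h for sgEPCR cells, so their time and the genotype cannot be told apart.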

How the results depend on the processing

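The direction of the member median was kept in all 139 comparisons with alternatives. In 60 the median moved by at least the SD of the medians obtained with 1 library left out. For sgEPCR against control cells in DMSO, for example, it went from -0.04 to -0.31 with total count scaling and -0.49 with limma. The median of all genes moved as well, from 0.0003 to -0.25 and -0.32. The member median minus that of all genes was -0.04 with TMM, -0.06 with total count scaling and -0.16 with limma. Meanwhile the count of members called stayed within 1.5 times in 131 of 147. With a more than 2-fold change and an adjusted p under 0.0001, the count over the 4 times in control cells was 0, 3, 13 and 36, and it was 29 in sgEPCR cells, 8 for the difference between responses, and 0 in DMSO and 11 in UM171 for sgEPCR against control cells. With all 21 libraries in 1 fit, 33 members were called at 24 h, while 4131 of 16786 genes were lower and 4647 higher. With limma on log2(TPM + 1), 30 were called in sgEPCR cells, 3 for the difference, 1 in DMSO and 26 in UM171. Of 15901 genes, limma called 557 lower and 2639 higher in sgEPCR cells, and 600 negative and 1411 positive for the difference. It called 1288 lower and 193 higher in DMSO, and 1206 lower and 783 higher in UM171. With total count scaling 20 members were called for the difference, while 2123 of 15901 genes were negative and 3146 positive. Without the 2 libraries over 20% mitochondrial, 41 were called in DMSO, where 4910 of 16360 genes were lower and 4958 higher. The cause of these shifts was not tested. Leaving out 1 library gave 52 to 52 calls at 6 h, 47 to 50 at 24 h, 47 to 50 at 48 h, 55 to 55 at 72 h, 48 to 51 in sgEPCR cells, 36 to 48 for the difference, 9 to 16 in DMSO (9 without control DMSO replicate 3) and 42 to 50 in UM171. Over the 4 times in control cells 4674 to 5910 of 16877 to 16983 genes were lower and 4605 to 6343 higher. Of 16213 to 16349 genes, 3523 to 4624 were lower in sgEPCR cells and 3806 to 4661 higher. For the difference 3196 to 4494 were negative and 2941 to 4139 positive. In DMSO 1994 to 2604 were lower and 2073 to 2717 higher, and in UM171 2781 to 4103 and 2551 to 3712.

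Same-numbered libraries deviated with correlations between -0.083 and 0.078 in the time course and between -0.609 and 0.448 in the sgEPCR fit. In the time course the numbers thus showed no pairing. In sgEPCR cells each deviation is from a mean of 3 libraries, 1 of them rich in mitochondrial counts. Between the 2 sgEPCR groups the correlation was 0.688 for the 2 rich libraries (DMSO replicate 1 and UM171 replicate 2). It was 0.448 to 0.53 between the others and -0.609 to -0.534 between a rich library and another. It thus followed the mitochondrial share, and whether the sgEPCR numbers pair the samples cannot be told from it. With the replicate number as a block, 52 members were called at 6 h, 50 at 24 h, 49 at 48 h, 55 at 72 h, 46 in sgEPCR cells and 31 for the difference. Of 16575 genes, this fit called 4947 lower and 5195 higher at 6 h, and 5684 and 5737 at 24 h. At 48 h it called 5747 and 6106, and at 72 h 6025 and 6401. Of 15901 genes, it called 2940 lower and 3366 higher in sgEPCR cells. For the difference it called 2622 negative and 2396 positive. The block was not run for sgEPCR against control cells, where it lies within genotype and leaves the contrast without an estimate.

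Of the values of named members, 2064 kept their side of the threshold, 116 lost and 39 gained the call, and 5 changed sign. Sign changes between uncalled values, as for MYC at 6 h (-0.11 against up to 0.10), are counted among the 2064. The 5 were, with limma, MXD4 at 6 h (0.38) and NPM1 in DMSO between cell groups (-0.078). The others, without the 2 libraries, were NOP58 in DMSO (-0.26) and MAX in DMSO (-0.27) and UM171 (-0.16). The cause was not tested. Among all genes called in sgEPCR cells 51.8% were higher with TMM, 69.2% with total count scaling and 82.6% with limma. The lowest count of a tested member was 122. Each sgEPCR group had 3 libraries, 1 of them rich in mitochondrial counts.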
